A study of Mus musculus with 16 samples.

Results

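The comparison is that of mature with immature medullary thymic epithelial cells (mTEC) of mice in which 1 of the 2 genes Rbfox1 and Rbfox2 was deleted in the thymic epithelium (thymus knockout, tKO). Its members are the 8 of the 16 RNA-seq libraries that come from tKO mice, 4 of mature and 4 of immature mTEC, each mouse giving 1 library of both. The 4 tKO mice are Rbfox1 tKO mice 2 and 3, of genotype Rbfox1 lox/lox with 1 Foxn1 cre allele, and Rbfox2 tKO mice 1 and 2, of genotype Rbfox2 lox/lox with 1 Foxn1 cre allele. Each tKO mouse therefore still carries the other RBFOX gene intact, and no mouse lacks both. The other 8 libraries come from 4 control mice, 2 for each line, with the same lox/lox alleles and wild-type Foxn1, and so without Cre.

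By the labels the mice were 4 to 6 weeks old, and in each line both genotypes were represented by 1 female and 1 male, the controls being littermates by the study's methods. The labels give the strain as C57BL/6, whereas the study's methods describe the background of the mutant lines as mixed, from 129S2/Sv and C57BL/6J. Cre was expressed from the Foxn1 locus, which is active in thymic epithelial cells at large. From each thymus, 10000 cells a population were sorted as CD45-, EpCAM+, Ly51- and UEA+, with high MHC class II for mature and low MHC class II for immature mTEC. The line and the deleted gene cannot be told apart, and neither can the presence of Cre and the deletion.

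Medullary thymic epithelial cells show developing T cells a broad sample of the body's own proteins, and T cells that react to them are removed or diverted. As mTEC mature, they gain AIRE, a regulator that turns on a large number of genes otherwise restricted to other tissues, together with costimulatory molecules and MHC class II. Immature mTEC are a mixture that holds basal, keratin 5 and keratin 14 expressing precursors beside other cells with low MHC class II. RBFOX proteins bind RNA and regulate alternative splicing, chiefly in neurons, muscle and heart. The comparison asks which part of the maturation programme forms when either RBFOX gene is deleted, as far as counts per gene show it.

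Total counts per library were 3737884 to 4467724 in mature and 1506134 to 2177615 in immature mTEC of tKO mice, so depth went with population. The deleted gene was checked first. Rbfox2 was at 9.61 and 16.3 CPM in mature and 38 and 23.7 CPM in immature mTEC of Rbfox2 tKO mice, against 57.6 to 58.3 and 95.3 to 106 CPM in control mice of that line. Rbfox1 was at 34.5 and 30.3 CPM in mature and 151 and 153 CPM in immature mTEC of Rbfox1 tKO mice, against 49.1 to 53 and 160 to 164 CPM in their controls. A count per gene also takes in reads from exons outside the deleted part, so the Rbfox1 value does not show how much of the gene was lost. CPM is the usual unit of counts scaled to a common library size, here after correction by TMM, a factor for the composition of a library.

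Maturation in tKO mice changed 4983 of the 14819 Ensembl genes tested (33.6%), of which 3292 were higher (22.2%) and 1691 lower (11.4%) in mature than in immature mTEC. A gene was called at an adjusted p under 0.05 and a fold change over 2, by edgeR's quasi-likelihood test with the mouse as a block and Benjamini-Hochberg adjustment. A size was given only to genes with at least 4 counts over the 4 libraries of each population, which were 2639 of those called higher and 1691 of those called lower. The median absolute log2 fold change was 2.08 over the former and 1.59 over the latter, and 270 and 47 of them changed by 4 to 6 log2 units. The other 653 genes called higher had 3 counts or fewer in immature mTEC, 163 of them none, so that the size of their rise is not known. The direction was the same in 4 of 4 tKO mice for 3265 of the genes called higher and 1661 of those called lower. These are bulk samples, in which fewer cells of a type and less RNA per cell cannot be told apart.

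The genes with the smallest p among those called higher were led by Nos2, the inducible nitric oxide synthase (chr11:78920787-78960254, mm10). It was at 502 and 443 CPM in mature mTEC of Rbfox1 tKO mice and 413 and 392 CPM in those of the Rbfox2 tKO mice, against 17.6 to 21.7 CPM in the 4 immature libraries (log2 fold change 4.44 ± 0.10 SE, edgeR adjusted p 2.1e-11). Ncf1, a subunit of the phagocyte NADPH oxidase, rose from 12.7 to 27.6 CPM in immature to 447 to 570 CPM in mature mTEC. Lsp1, an actin-binding protein of leukocytes, went from 9.21 to 12 CPM to 187 to 228 CPM. In none of the 3 did the groups overlap, which follows from their choice by p. Further genes of this kind were Tfap2b, an AP-2 transcription factor (log2 fold change 4.77), the growth factor Igf1 (3.40), the serpin Serpinb12 (4.65), the neuronal pentraxin Nptx2 (4.98) and Aoc1, which oxidises diamines (3.27), with Spock1 (3.35) and Ahcyl2 (2.56) completing the 10. Genes with 0 counts in the 4 immature libraries, for which only a lower bound can be given, included the enamel protein Amelx (at least 53.4-fold higher), the neuronal metallothionein Mt3 (at least 47.6-fold) and the fat cell hormone Adipoq (at least 36.1-fold).

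The genes with the smallest p among those called lower were led by Wfikkn2, which binds myostatin and related ligands (chr11:94235956-94246005). It was at 1492 and 1121 CPM in immature mTEC of the Rbfox1 tKO mice and 2015 and 1884 CPM in those of the Rbfox2 tKO mice, and at 51.4 to 90.6 CPM in the 4 mature libraries (log2 fold change -4.46 ± 0.08 SE, adjusted p 1e-11). Lifr, the receptor of leukaemia inhibitory factor, fell from 747 to 1014 CPM to 32 to 35 CPM. The actin-binding smooth muscle protein Tagln had the largest fall, from 630 to 1174 CPM to 14.7 to 21.7 CPM (log2 fold change -5.61 ± 0.11 SE). Further genes with large falls were the Hedgehog co-receptors Boc (-5.14) and Gas1 (-5.12), the activin antagonist Fst (-4.86), the collagen cross-linking enzyme Lox (-4.79) and Mgp, which inhibits calcification (-4.76), and the matrix protein Vwa1 (-4.87).

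The mature mTEC markers moved together. Of 12 markers, 7 were higher (58.3%) and 0 lower, against 22.2% and 11.4% of all genes. The median log2 fold change was 1.76, against 0.02 over all genes tested. Aire (chr10:78030022-78043610) was at 1602 and 1467 CPM in mature mTEC of Rbfox1 tKO mice and at 691 and 917 CPM in those of the Rbfox2 tKO mice. In immature mTEC it was at 259 and 212 CPM in the Rbfox1 and 19.7 and 54.4 CPM in the Rbfox2 tKO mice, so each mature library stood above each immature one (log2 fold change 3.36 ± 0.27 SE, adjusted p 3.3e-07). In control mice Aire was at 643 to 1585 CPM in mature and 36.4 to 299 CPM in immature mTEC.

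Cd80, a costimulatory ligand of CD28, was at 213 to 241 CPM in the 4 mature and 8.43 to 29.2 CPM in the 4 immature tKO libraries (log2 fold change 3.47 ± 0.19 SE). Its partner Cd86 was at 27.5 to 44 CPM and 0 to 1.85 CPM (5.10 ± 0.31 SE). Ccl22, a chemokine that attracts CCR4-bearing thymocytes, was at 319, 201, 196 and 269 CPM in the mature libraries in the order given above, and at 3.49 to 10.2 CPM in the immature ones (5.46 ± 0.22 SE). These 3 genes were separated between the populations in each mouse, as genes named for a large change would be. Ccl17, the other ligand of CCR4, had 0 counts in the 4 immature libraries and was at least 27.6-fold higher in mature mTEC, taking 3 counts over the 4 libraries as the floor. Cd40, a receptor of T cell help, rose by 2.08 and Fezf2, a regulator of self-antigens that acts beside AIRE, by 1.44 on the log2 scale. The remaining members are Tnfrsf11a, the receptor RANK (0.60), and Cd74, H2-Aa, H2-Ab1 and H2-Eb1 (0.55 to 0.89), none of them past 2-fold. The class II molecule was itself the sorting gate, so its 4 genes are given as a description.

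The 8 immature mTEC markers tested were all lower in mature mTEC of tKO mice, against 11.4% of all genes tested. The median log2 fold change of these markers was -2.51. Krt5, a keratin of basal epithelium (chr15:101707070-101712898), was at 3605, 3204, 4273 and 4523 CPM in immature and 442, 467, 506 and 616 CPM in mature mTEC (-2.94 ± 0.08 SE, adjusted p 4.9e-11). Its partner Krt14 fell by 2.91 and Trp63, the transcription factor that maintains basal epithelium, by 2.12 on the log2 scale. Pdpn, the surface protein podoplanin, was at 140 to 285 CPM in immature and 17.7 to 20.7 CPM in mature mTEC. Ackr4, a scavenging receptor for chemokines, had the largest fall of the list, from 43.5 to 70.5 CPM to 4.09 to 4.9 CPM (-3.63 ± 0.18 SE). The laminin-binding integrins Itgb4 (-1.39) and Itga6 (-1.07) and the surface protein Ly6a (-2.02) were the other members. The Ccl21 genes, which encode the classical ligand of CCR7 made by immature mTEC, are near-identical copies that share reads, and they are not described here.

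**Figure D1:**
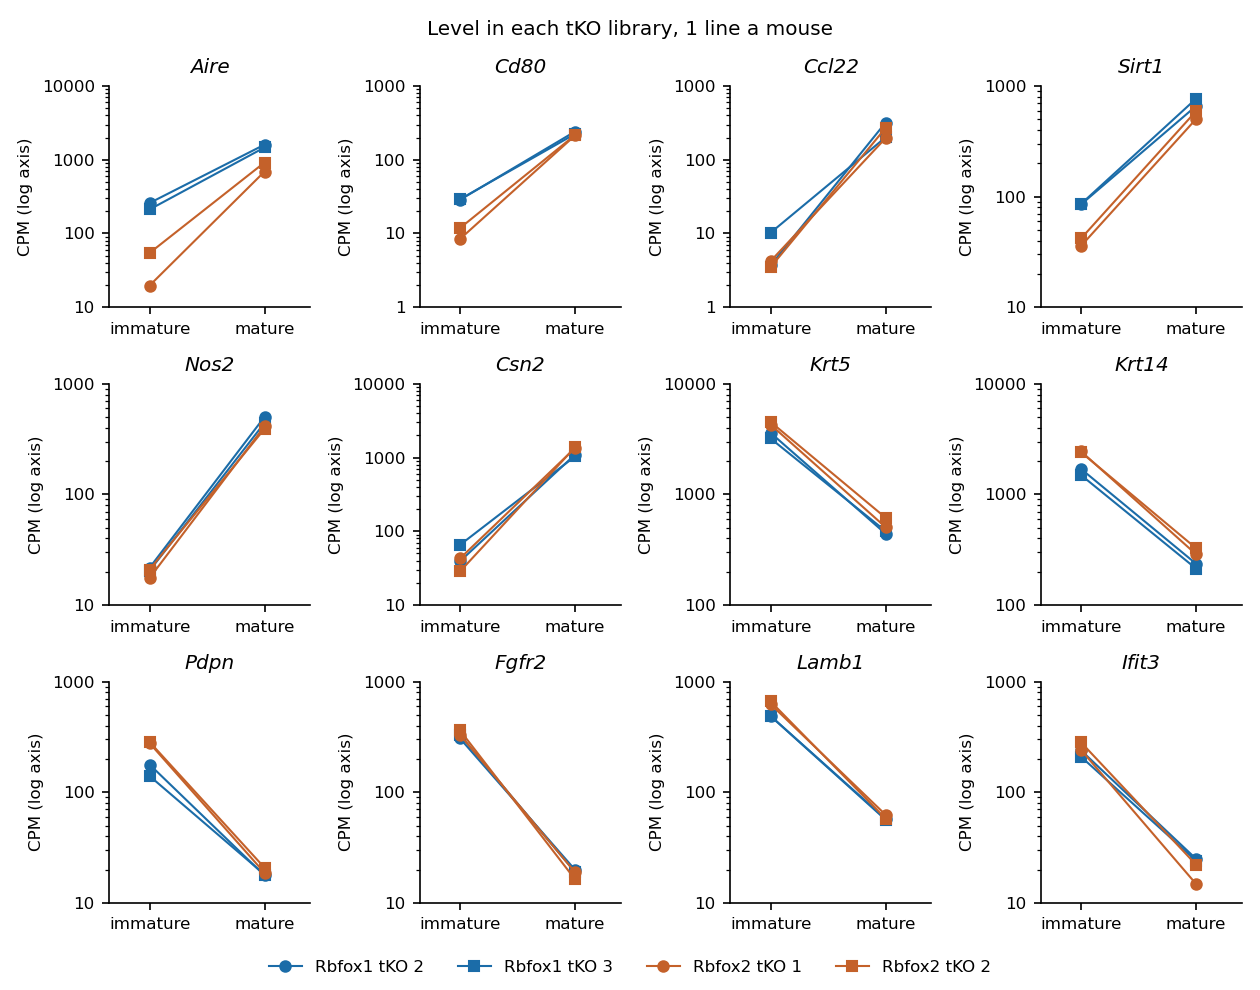
CPM on a log axis in immature and mature mTEC for 12 genes named in the text, with 1 line for each of the 4 tKO mice (blue, Rbfox1 tKO; orange, Rbfox2 tKO). Aire, Cd80, Ccl22, Sirt1, Nos2 and Csn2 rise and Krt5, Krt14, Pdpn, Fgfr2, Lamb1 and Ifit3 fall in each mouse, and the immature libraries of the Rbfox1 tKO mice stand above those of the Rbfox2 tKO mice for Aire, Cd80 and Sirt1.

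Among genes of MHC class II presentation, 6 of 17 were higher (35.3%) and 1 lower (5.88%), against 22.2% and 11.4% of all genes. MHC class II was itself the sorting gate, so this list is given as a description and is no test. H2-Eb2, a class II beta chain, had the largest gain, from 72.4 to 161 CPM in immature to 960 to 1099 CPM in mature mTEC (3.18 ± 0.17 SE). The chains of H2-O, a modulator of peptide loading, followed (H2-Ob 2.24, H2-Oa 1.87), and H2-DMb2, of the peptide exchange factor, rose by 1.16. Rfxap, a subunit of the RFX complex that switches class II genes on, was the member called lower (-1.05), and their coactivator Ciita was not called (0.95). None of the 15 class I processing genes was called in either direction, and their log2 fold changes lay between -0.73 and 0.91.

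Receptors and effectors of NF-kB, the pathway by which RANK, CD40 and the lymphotoxin receptor drive mTEC maturation, were 7 of 23 higher (30.4%) and 2 lower (8.7%), with a median of 0.82, shares near the 22.2% and 11.4% of all genes. Tnfrsf11b, the soluble decoy of RANK ligand, was at 314 to 338 CPM in mature and 31.6 to 66 CPM in immature mTEC (2.84 ± 0.14 SE). The subunit Rel rose by 1.90 and the adaptor Traf1 by 1.57 on the log2 scale. Traf5 (-2.03) and the lymphotoxin receptor Ltbr (-1.31) fell, and Relb, the subunit of the alternative pathway, was not called (0.87). Of the costimulatory and inhibitory ligands, 8 of 17 were higher (47.1%) and 2 lower (11.8%). Tnfsf4, which encodes OX40 ligand, had the largest fitted change on 1 count in immature mTEC, a 52-fold ratio of CPM with a 95% counting interval of 9.17 to 2072, and Cd70, the ligand of CD27, rose from 2.79 to 4.16 CPM to 30.5 to 40.3 CPM. Il7, the cytokine that thymocytes depend on, was lower, at 63.2 to 88.4 CPM in mature against 292 to 389 CPM in immature mTEC (-2.22 ± 0.10 SE), as was Il15ra (-1.01).

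Against 22.2% and 11.4% of all genes, 15 of 22 chemokines were higher (68.2%) and 3 lower (13.6%), with a median of 1.67. Beside Ccl22 and Ccl17 these were Xcl1, which draws thymic dendritic cells and had 0 counts in the 4 immature libraries (at least 19.3-fold higher), the B cell attractant Cxcl13 (52.2 to 64.8 CPM against 1.39 to 6.28 CPM), Ccl5 (81 to 117 CPM against 4.22 to 8.69 CPM) and the CCR9 ligand Ccl25 (391 to 528 CPM against 62.1 to 67.5 CPM). The 3 that fell were led by Cxcl12, the CXCR4 ligand (19.3 to 21 CPM against 119 to 262 CPM), and Cxcl14 (9.06 to 10.2 CPM against 57.3 to 101 CPM).

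Genes of basal adhesion and matrix fell more often than they rose, 12 against 5 of 29 (41.4% and 17.2%, against 11.4% and 22.2% of all genes). Lamb1, a laminin beta chain, was at 488 to 662 CPM in immature and 56.5 to 62.6 CPM in mature mTEC (-3.26 ± 0.09 SE, adjusted p 6.7e-11). Chains of laminin 332, which anchors basal cells, fell likewise (Lamb3 -2.74, Lama3 -2.67), as did the type IV collagen chain Col4a1 (-2.0) and the caveolar protein Cav1 (-3.10). Itgb8, an integrin that activates TGF-beta, moved the other way (1.80). Among keratins, 4 of 17 were higher and 4 lower (23.5% each), against 22.2% and 11.4% of all genes. Those of the basal layer fell, and with them Krt7 (-1.85) and Krt17 (-1.12), whereas Krt13, a keratin of moist stratified epithelium, rose from 0 to 1.41 CPM to 41.2 to 73.3 CPM (6.22 ± 0.29 SE), Krt76 by 4.81 and Krt20, a keratin of intestinal epithelium, by 2.94 on the log2 scale. The simple epithelial keratin Krt18 was not called (-0.77).

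Genes of developmental signalling fell more often than they rose. Of 33 genes of the Notch, Wnt, BMP and FGF pathways, 23 were lower (69.7%) and 4 higher (12.1%), with a median of -1.41. Of all genes tested, 11.4% were lower and 22.2% higher. Fgfr2, the receptor of FGF7 and FGF10, was at 306, 328, 330 and 361 CPM in immature and 19.9, 19, 18.9 and 16.3 CPM in mature mTEC (-4.15 ± 0.10 SE, adjusted p 3e-11). The Wnt receptor Fzd2 fell by 4.13, the Notch targets Hey2 by 3.67 and Hey1 by 2.76, the Notch ligand Jag2 by 3.09, the receptor Notch3 by 2.57 and Egfr by 2.25 on the log2 scale. The ligands Tgfb2 (2.32), Bmp2 (2.0) and Dll4 (1.73) rose. Of the 16 transcription factors of thymic epithelial identity, 9 were lower (56.25%) and 1 higher (6.25%). Those called lower included Hoxa3 (-3.20), Eya1 (-1.80) and Pax1 (-1.30), which act in the formation of the thymus. The member called higher was Tbx1 (2.11, at 5.53 to 6.97 CPM in mature mTEC).

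Foxn1, the master regulator of thymic epithelium and the driver of Cre, was at 366 to 442 CPM in mature and 188 to 271 CPM in immature mTEC of tKO mice, a log2 fold change of 0.88 that is not past 2-fold. Its level in controls was 253 to 266 and 112 to 143 CPM. The gene Unc119 beside it (chr11:78343482-78349164) was likewise at 34.4 to 41.2 and 132 to 176 CPM in tKO against 7.08 to 10.2 and 27.4 to 52.8 CPM in control mice. Its change with maturation was -2.0 in tKO and -2.17 in control mice. Slc13a2 rose by 1.31 and Slc13a2os, an antisense gene that overlaps it, by 1.45 in tKO mice, and as whether reads were counted by strand is not stated, these 2 may share reads. The levels of these 4 neighbours thus differed with Cre in both populations, and the part of this in other results was not tested.

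AIRE acts with a set of partner proteins. Of 18, 3 were higher (16.7%) and 1 lower (5.56%), no more than among all genes (22.2% and 11.4%), with a median of 0.04. Sirt1, the deacetylase that activates AIRE, had the largest change of the list (3.36 ± 0.14 SE, edgeR adjusted p 9.1e-10). It was at 659, 767, 503 and 592 CPM in mature and 85.1, 85.9, 35.8 and 41.9 CPM in immature mTEC. Irf8 (1.80) and Ikzf1 (1.31), transcription factors of blood cells that mTEC also use, rose, and Sp100, a nuclear body protein, fell by 1.13 on the log2 scale.

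Each of the 11 known Aire-dependent antigens tested was called higher in tKO mice, against 22.2% of all genes. Their median was 4.76 (4.02 with genes at 0 in immature mTEC taken at their bound). A gene low in immature mTEC passed the filter through the mature libraries, so this count is no estimate for the whole list and no test of AIRE. Csn2, beta-casein of milk (chr5:87692624-87699630), was at 1096 and 1036 CPM in mature mTEC of Rbfox1 tKO mice and 1346 and 1375 CPM in those of the Rbfox2 tKO mice, against 28.6 to 65.5 CPM in immature mTEC (4.76 ± 0.18 SE). The stomach mucin Muc6 and the Purkinje cell peptide Pcp4 had 0 counts in the 4 immature libraries and were at least 16.2- and 11.9-fold higher. Ins2, insulin, was at 12.1 to 15.6 CPM in mature mTEC on 2 counts in immature mTEC, a ratio of 49.1 with a 95% counting interval of 13.5 to 408. Apoc3, an apolipoprotein of the liver, rose by 3.85 and the neuropeptide Gal by 5.29 on the log2 scale. Sst, somatostatin, had the smallest gain of the list (1.76 ± 0.54 SE), and its immature level of 28.8 CPM in Rbfox2 tKO mouse 1 lay within the mature range of 21.4 to 35.4 CPM. Of 10 antigens that depend on Fezf2 or do not need AIRE, 7 were higher, led by Apob (4.87) and including the thyroid hormone carrier Ttr (4.09), and Crp, C-reactive protein, was lower (-1.74).

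Genes of other tissues were called higher more often than lower in each of the 10 tissue groups examined, though not evenly. The share called higher was largest for germ cells (13 of 14, median 4.17), the digestive tract and exocrine pancreas (31 of 34, 3.64), liver plasma proteins (27 of 32, 3.86), endocrine glands (19 of 23, 4.50) and salivary, lacrimal, mammary and seminal genes (13 of 16, 5.39). It was 11 of 14 for the eye (4.24), 28 of 38 for the nervous system (1.96), 17 of 32 for striated muscle (1.42), 9 of 18 for pancreatic islet (0.91) and 14 of 31 for skin and hair (0.61). With genes at 0 in immature mTEC taken at their bound, the medians were 3.81 for germ cells, 4.46 for endocrine glands and for the salivary group, and 3.87 for the eye. These shares stand beside 22.2% of all genes tested. Members that could not be tested for want of counts are left out of them. A gene low in immature mTEC passed the filter only through the mature libraries, so the shares are no estimate for the whole lists. Lower calls were 6 of 32 in striated muscle (18.75%) and 4 of 32 in liver (12.5%), against 11.4% of all genes. The summed level of the liver list fell, from 1688 to 2939 CPM in immature to 1246 to 1300 CPM in mature mTEC. Most of the immature sum was Apoe, a member that fell and whose levels are given further on. The liver sum therefore does not describe the other members. The summed level of striated muscle overlapped (1726 to 1914 and 1640 to 1789 CPM), and that of the digestive list rose (408 to 794 and 1637 to 1906 CPM).

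Single antigens show what this means in counts. In the digestive group the pepsinogen Pgc was at 170 to 200 CPM in mature and 0 to 4.62 CPM in immature mTEC (6.45 ± 0.26 SE), and the trypsinogen Prss1 was at least 22.9-fold higher, with 0 counts in the 4 immature libraries. Sis, the sucrase of the gut lining, rose from 0 to 5.63 CPM to 40.1 to 61.5 CPM. The intestinal lipoprotein Apoa4 was at 339 to 392 CPM against 9.14 to 38.9 CPM, and the thyrotropin-releasing hormone gene Trh had 0 counts in immature mTEC (at least 45-fold higher). Pomc, the precursor of ACTH, was at 63.4 to 91.1 CPM in mature mTEC on 3 counts in immature mTEC, a ratio of 182 with a counting interval of 62.3 to 885.5. Afp, the fetal plasma protein, was found on 1 count in immature mTEC (ratio 72.5, counting interval 12.8 to 2878), and the gut hormone Pyy rose by 5.0 on the log2 scale. For Apob the mice were uneven, as Rbfox1 tKO mouse 3 had 13.3 CPM in immature mTEC where the other 3 mice had 0 to 1.41 CPM.

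In the nervous system group the glutamate receptor subunit Grin1 was at 17 to 20.8 CPM in mature mTEC on 1 count in immature mTEC, a ratio of 130 with a counting interval of 23.2 to 5164. Calb2, calretinin, rose from 0.698 to 1.02 CPM to 36 to 57.5 CPM, and the synaptic vesicle protein Syt1 from 160 to 220 CPM to 606 to 640 CPM. The egg coat gene Zp3 had 0 counts in immature mTEC (at least 23-fold higher), whereas Zp2, which forms the same coat, was already at 7.16 to 14.7 CPM there and at 58.5 to 71.9 CPM in mature mTEC. Embryonic myosin Myh3 rose from 0.698 to 4.6 CPM to 64.8 to 74 CPM, the fast-fibre actinin Actn3 from 238 to 340 CPM to 665 to 842 CPM, and the lens crystallin Cryaa from 0 to 2.05 CPM to 32.2 to 36.7 CPM. Mip, the water channel of the lens, had 1 count in immature mTEC (ratio 97.0, counting interval 17.2 to 3848). The milk casein Csn1s2a had a ratio of 118 (32.5 to 977). The hair keratin Krt81 had a ratio of 155 on 1 count (27.6 to 6134). The hair keratin Krt71 went from 0.703 to 2.79 CPM to 46.1 to 85.8 CPM, and the calcitonin family hormone Calcb from 31.6 to 77.2 CPM to 576 to 712 CPM.

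Among tissue genes, some fell with maturation in tKO mice. Apoe, which carries lipid and is made by cells other than hepatocytes too, was at 109 to 188 CPM in mature and 1480 to 2715 CPM in immature mTEC (-3.86 ± 0.10 SE, adjusted p 4.9e-11). Tpm2, a tropomyosin that non-muscle cells share, fell by 2.19, and adult fast myosin Myh1, at 5.58 to 31.7 CPM in immature mTEC, by 2.76 on the log2 scale. Further genes called lower were the neuronal microtubule protein Map2 (-1.13), the crystallin Crybb3 (-1.24), the inhibin subunit Inha (-1.22) and Sprr2a1 of the cornified envelope (-2.84). In the islet group no gene was called lower.

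**Figure D2:**
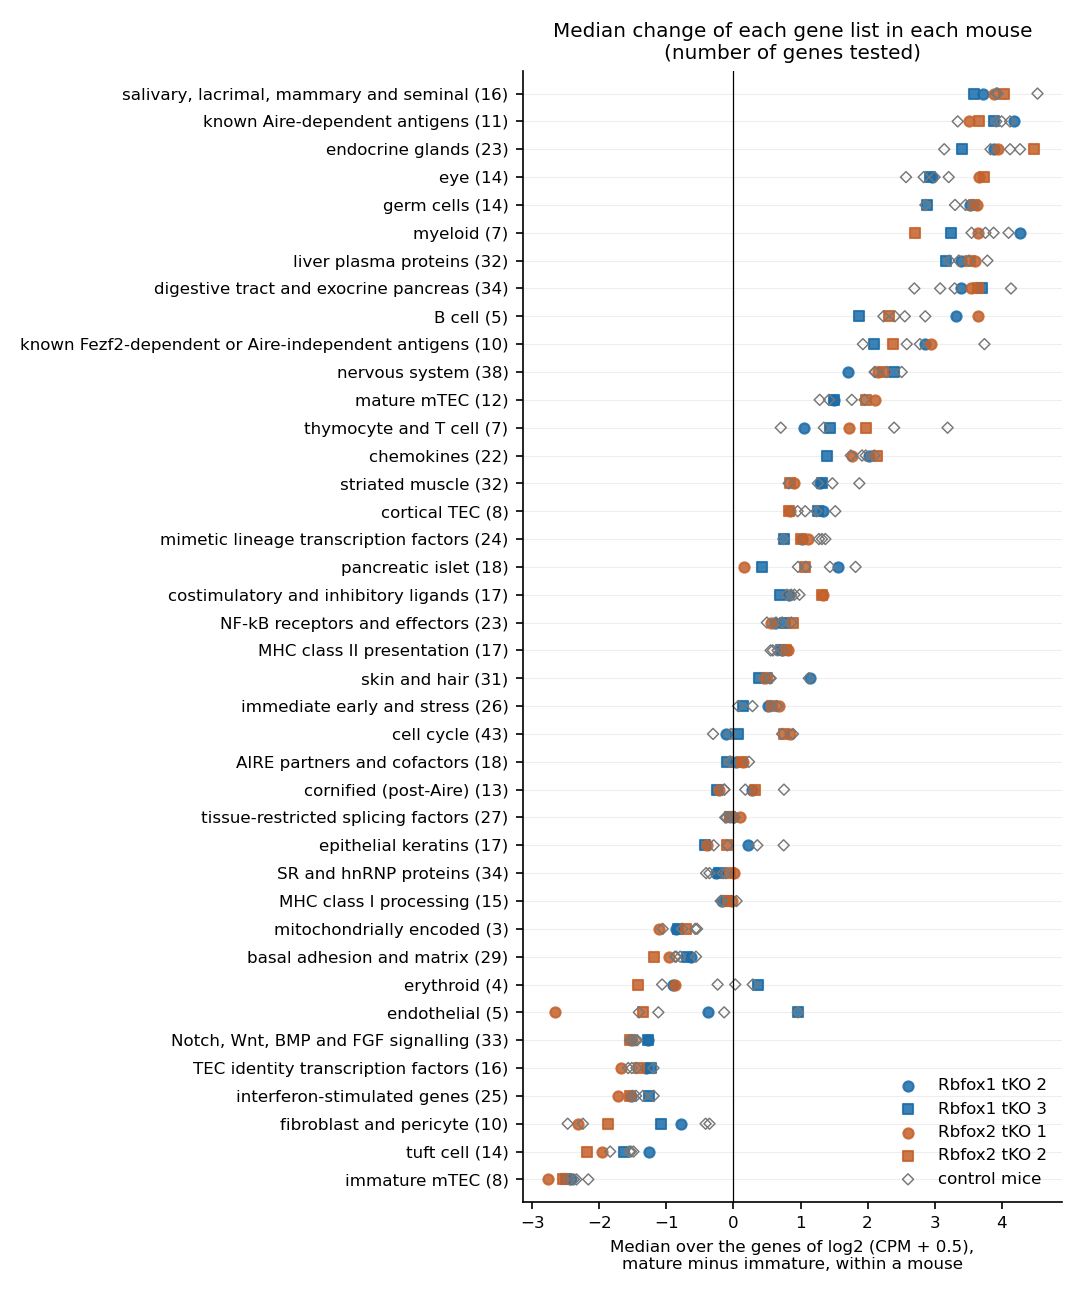
Median over the genes of each list of the change with maturation within a mouse, on the log2(CPM + 0.5) scale, for the 4 tKO mice (blue and orange) and the 4 control mice (grey diamonds); the number of genes tested follows each name. Lists of tissue genes lie to the right in each mouse, immature mTEC, tuft cell and interferon-stimulated lists to the left, and the endothelial and cell cycle lists split by line.

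Breadth of expression was compared at equal depth, with each library thinned to 1506134 counts. A count was found for 22139 ± 347 Ensembl genes (SD, n = 4) in mature and 18530 ± 463 in immature mTEC of tKO mice. The gain was 3609 genes, between 3495 and 3764 in the 4 mice, and 4 of 4 mice rose (exact two-sided sign-flip permutation test, p = 0.13, the smallest that 4 mice allow, so that 0.05 cannot be reached). Protein-coding genes made up 2409.25 of the gain. In control mice the gain was 3700.75 genes, between 3359 and 3958. By class, 3029 of 13770 protein-coding genes tested were called higher, 107 of 203 long intergenic noncoding RNAs, 60 of 149 antisense genes and 15 of 383 processed pseudogenes, of which 99 were lower. A gene low in immature mTEC passed the filter only through the mature libraries, so these counts do not compare the classes.

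**Figure D3:**
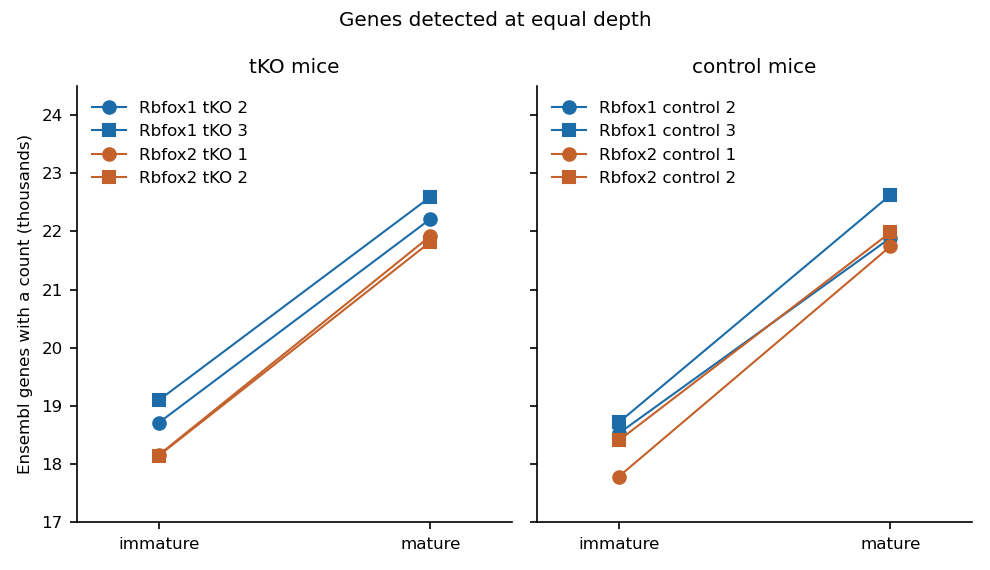
Number of Ensembl genes, in units of 1000, with at least 1 count after thinning to 1506134 counts a library, in immature and mature mTEC of 4 tKO mice (left) and 4 control mice (right), 1 line a mouse. The axis starts above 0, and each of the 8 lines rises, by 3495 to 3764 genes in tKO and 3359 to 3958 in control mice.

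Transcription factors of the mimetic mTEC lineages, which copy cell types of other organs, were 12 of 24 higher (50%) and 2 lower (8.33%). These shares stand beside 22.2% and 11.4% of all genes. Of 36 members only 24 were tested, and a member low in immature mTEC passed the filter only through the mature libraries. Gata4, a factor of heart and gut, was at 28.1 to 34.7 CPM in mature and 0 to 3.58 CPM in immature mTEC, and the hepatic and intestinal factor Hnf4g at 42.2 to 53.8 CPM against 3.7 to 8.69 CPM. The intestinal factor Cdx1 rose by 2.72 and the neuroendocrine factor Insm1 by 2.19 on the log2 scale. Myog, the muscle differentiation factor, fell by 1.35 on the log2 scale.

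Tuft cell genes were lower in mature mTEC, 11 of 14 (78.6%, against 11.4% of all genes), with a median of -1.94 and none higher. Thymic tuft cells are chemosensory cells found among mTEC with low MHC class II. The taste channel Trpm5 was at 128 to 177 CPM in immature and 32.4 to 43.9 CPM in mature mTEC (-2.14 ± 0.10 SE), the phospholipase Plcb2 fell by 2.43, Alox5, which starts leukotriene synthesis, by 2.21 and Dclk1 by 2.01 on the log2 scale. Pou2f3, the factor that specifies tuft cells, was not called (-0.62). Of 13 genes of cornified cells, 2 were higher (15.4%), Sprr1b (2.97) and Krt77 (1.51), and 0 lower, against 22.2% and 11.4% of all genes. The keratin Krt10 and the envelope protein Ivl were at 258 to 411 and 14.8 to 28.9 CPM in mature against 154 to 306 and 18.5 to 29.3 CPM in immature mTEC. Against 22.2% and 11.4% of all genes, 4 of 8 genes of cortical epithelium were higher (50%) and 1 lower (12.5%). The former include Ccl25, Dll4 and Enpep (1.94). The member called lower was Cxcl12 (-3.17), and the cortical protease Prss16 was not called (-0.84).

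Interferon-stimulated genes fell with maturation. Of 25 tested, 14 were lower (56%) and 1 higher (4%), with a median of -1.62. Of all genes tested, 11.4% were lower and 22.2% higher. Ifit3, an antiviral protein, was at 239, 209, 241 and 282 CPM in immature and 25, 24, 14.8 and 22.1 CPM in mature mTEC (-3.48 ± 0.13 SE, adjusted p 4.6e-10). Irf7, a factor that amplifies type I interferon, fell from 419 to 507 CPM to 61.2 to 79.1 CPM. Ifi44 fell by 3.38, the RNA sensor Oas2 by 3.0, the guanylate-binding protein Gbp3 by 2.51, the ubiquitin-like Isg15 by 2.44 and Oas1a by 2.43 on the log2 scale. The member called higher was Ifnl2, a type III interferon, at 3.5 to 7.96 CPM in mature mTEC on 1 count in immature mTEC.

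Several of these genes carry in their promoters the motif bound by interferon-activated factors, here searched as GAAANNGAAA or its reverse complement TTTCNNTTTC, with overlapping matches allowed. The windows are the 160 bases before the RefSeq start of the gene on GRCm38.p6, taken on the strand of the gene, and matches are in capitals. They are shown for 4 genes called lower whose window holds the motif. They lie at chr19:34583369-34583528 on the plus strand (Ifit3), chr3:142559884-142560043 on the plus strand (Gbp3), chr4:156200819-156200978 on the minus strand (Isg15) and chr5:120907526-120907685 on the minus strand (Oas1a).
Ifit3: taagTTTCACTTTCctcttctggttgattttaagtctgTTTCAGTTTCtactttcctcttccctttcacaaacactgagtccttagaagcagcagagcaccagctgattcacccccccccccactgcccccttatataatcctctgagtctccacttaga
Gbp3: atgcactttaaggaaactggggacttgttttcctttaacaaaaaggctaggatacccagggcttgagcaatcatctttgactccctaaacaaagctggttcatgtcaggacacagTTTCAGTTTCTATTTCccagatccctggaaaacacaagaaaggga
Isg15: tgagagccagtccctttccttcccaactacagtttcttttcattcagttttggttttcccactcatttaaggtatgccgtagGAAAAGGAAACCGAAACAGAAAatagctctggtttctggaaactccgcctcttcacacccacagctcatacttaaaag
Oas1a: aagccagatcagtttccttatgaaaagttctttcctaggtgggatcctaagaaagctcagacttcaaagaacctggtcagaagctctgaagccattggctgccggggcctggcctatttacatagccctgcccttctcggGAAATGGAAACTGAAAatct

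The 4 windows hold 2, 2, 3 and 2 matches, and the farthest from the start lies 156, 45, 78 and 20 bases before it, in the same order. Of 27025 windows of this length, 1 a gene, 473 hold the motif (1.75%). Windows were found for 19 of the 25 genes tested, so no share over the list is given. Among the other genes called lower with a window, those of Bst2 and Gbp2 hold 2 and 1 matches. The windows of Irf7 and Ifi44, which fell as far as the genes shown, and of Ifngr1, Stat2 and Oasl2 hold no match. A match is a description of the sequence.

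Among tissue-restricted splicing factors, 4 of 27 were higher (14.8%) and 3 lower (11.1%), no more than among all genes (22.2% and 11.4%). Rbfox1 itself fell with maturation in tKO mice, from 107 to 153 CPM to 30.3 to 53.5 CPM (-1.73 ± 0.17 SE, adjusted p 2.1e-06). In the Rbfox2 tKO mice, whose Rbfox1 gene is intact, it was at 124 and 107 CPM in immature and 53.5 and 46.2 CPM in mature mTEC. Rbfox2 in the Rbfox1 tKO mice, where it is intact, was at 102 and 119 CPM in immature and 65.5 and 60.1 CPM in mature mTEC. Rbfox3, the neuronal member of the family and a tissue-restricted gene, was at 17.2 to 25.2 CPM in mature mTEC, 4.16 and 1.53 CPM in immature mTEC of the Rbfox1 tKO mice and 0 CPM in those of the Rbfox2 tKO mice. The neural RNA-binding proteins Msi1 (2.56) and Elavl3 (2.69) rose, and the muscle splicing factor Rbm24 fell (-2.81). Of 34 SR and hnRNP proteins, which splice in most cells, 0 were higher and 1 was lower, Srsf12, from 8.69 to 15.5 CPM to 1.17 to 1.37 CPM.

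Markers of cells outside the epithelium moved as well. Of the myeloid markers 7 of 7 tested were higher in mature mTEC of tKO mice, against 22.2% of all genes tested. The summed level of the myeloid list was 361 to 417 CPM against 30.05 to 49.9 CPM. Adgre1, the macrophage antigen F4/80, was at 31 to 34.9 CPM in mature mTEC with 0 counts in the 4 immature libraries (at least 75.6-fold higher), and the lysozyme gene Lyz2 at 190 to 255 CPM against 8.32 to 19 CPM. All 5 B cell markers tested were higher, with a sum of 255 to 323 CPM against 46.4 to 71.2 CPM, and 5 of 7 thymocyte markers, with a sum of 81.6 to 94.2 CPM against 26.1 to 34.2 CPM. Pax5, the B cell identity factor, was at 26.6 to 33.5 CPM in mature mTEC, Cd4 at 26.1 to 34.1 CPM and the leukocyte marker Ptprc (CD45), on which the sort selected against, at 9.33 to 12 CPM. Further markers of these lists (6 myeloid, 6 thymocyte and 2 B cell genes) had too few counts to be tested. A marker low in immature mTEC passed the filter only through the mature libraries, so these counts are no estimate for the whole lists. Whether the transcripts of these markers come from other cells in the sort or from mTEC was not tested. Their part in the rises named above, Ncf1 and Lsp1 included, was not tested either.

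Fibroblast and pericyte markers went the other way, 7 of 10 lower (70%) and 2 higher (20%), against 11.4% and 22.2% of all genes. The sum of the list was 1088 to 1466 CPM in mature mTEC, 1956 to 2117 CPM in immature mTEC of the Rbfox1 tKO mice and 3864 to 4281 CPM in those of the Rbfox2 tKO mice. The matrix gene Col3a1 was at 218 and 188 CPM in immature mTEC of the Rbfox1 and 951 and 749 CPM in those of the Rbfox2 tKO mice. The matrix gene Mfap5 rose (2.54). Dcn, the proteoglycan decorin, followed the same order, and the pericyte gene Rgs5 did not, at 1354 to 1563 CPM in the 4 immature libraries. Endothelial markers were 2 of 5 lower, of which Pecam1 lost its call without Rbfox2 tKO mouse 1 (log2 fold change -0.84) or mouse 2 (-1.15). The endothelial list summed to 28.6 to 66.1 CPM in immature mTEC of the Rbfox1 and 216 to 281 CPM in those of the Rbfox2 tKO mice. In mature mTEC of tKO mice the sum of that list was 59.3 to 86.1 CPM. The part of these cells in the falls of matrix genes such as Lox and Mgp was not tested. Of 4 erythroid genes tested 1 was higher and 0 lower. Of 26 immediate early and stress genes 3 were higher (11.5%) and 0 lower, against 22.2% and 11.4% of all genes, with a median of 0.54. Of 3 mitochondrially encoded genes tested 1 was lower, and the sum of the list was 99.7 to 118 CPM in mature and 153 to 222 CPM in immature mTEC.

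The same comparison in the 4 control mice, which share no library with the tKO mice, called 4977 of 14962 genes (33.3%), 3375 higher (22.6%) and 1602 lower (10.7%). Of the 3292 genes called higher in tKO mice, 2936 were called higher in controls, which is 89.2% of the tKO and 87.0% of the control calls. Of the 1691 called lower, 1392 were called lower in controls (82.3% and 86.9%), and 0 genes were called in opposite directions. Across the 14561 genes tested in both, the log2 fold changes had a Pearson r of 0.957 and a Spearman rho of 0.963, as a description over genes that are not independent and populations that differ in depth in the same way. Of the genes called higher in tKO and tested but not called in control mice, 230 of 234 had the same direction there and 166 an adjusted p under 0.05. For those called lower these were 256 and 210 of 258.

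**Figure D4:**
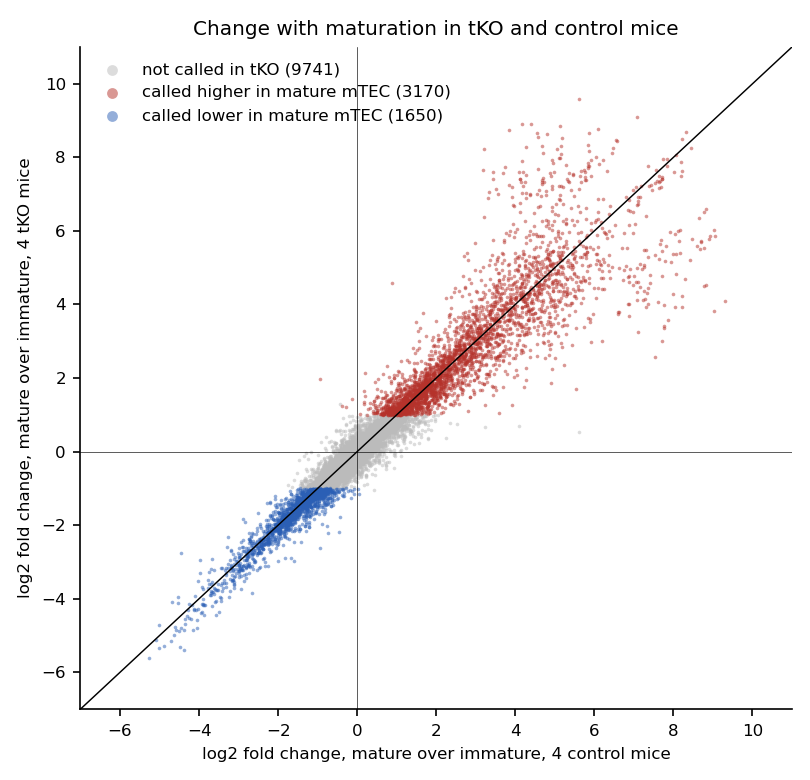
Log2 fold change of mature over immature mTEC in 4 control mice (horizontal) and 4 tKO mice (vertical), 1 point for each of 14561 Ensembl genes, red where called higher and blue where called lower in tKO mice. The points follow the diagonal (r = 0.957), and the arms off it at the upper right hold genes with few or no counts in immature mTEC, whose fitted values are no estimate of size.

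A direct test of the difference between the 2 maturation effects, in 1 fit of the 16 libraries, called 0 of 15905 genes (0%) at an adjusted p under 0.05. At an unadjusted p under 0.05 there were 562 genes (3.53%), and DESeq2 called 0 with 200 unadjusted. For the markers named above, the tKO minus control difference on the log2 scale was 0.25 for Aire (95% interval -0.69 to 1.19), 0.10 for Cd80 (-0.73 to 0.93), 0.17 for Csn2 (-0.56 to 0.90), 0.07 for Sirt1 (-0.36 to 0.49), -0.09 for Krt5 (-0.28 to 0.11) and -0.22 for Fgfr2 (-0.51 to 0.06). Not being called is no proof of equal change. This fit gives both lines 1 maturation effect for each genotype, so that differences between the lines add to its spread. With a maturation term for each line, a fit added after the data were seen, 12 genes were called (0.0754%), 2 of them with the higher change in tKO mice, and 0 without the mouse block or by DESeq2. Reg3g, described with the Rbfox2 line further on, had the smallest p of the 12 (difference -1.01 ± 0.13 SE, edgeR adjusted p 1.7e-06). In the fit with 1 effect a genotype, the interval lay within 1 log2 unit of 0 for 923 of the 3292 genes called higher (28.04%) and 1182 of the 1691 called lower (69.9%), and with a term for each line these shares were 30.0% and 73.1%. For most of the genes called higher, a difference of 2-fold could therefore not be told from none in either fit.

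A few genes stood at the edge of these intervals. The fall of Irf7 was larger in tKO than in control mice by 0.30 (interval of the difference -0.57 to -0.03), that of Trpm5 by 0.41 (-0.72 to -0.10) and that of Boc by 0.45 (-0.85 to -0.06) on the log2 scale, and the rise of Dll4 was smaller, with a difference of -0.87 (-1.53 to -0.21). None of these passed the adjustment over all genes, where the adjusted p of each was 1 by edgeR's quasi-likelihood test, and 0.23 to 0.54 with a term for each line.

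More genes were called between the lines than between the genotypes. The maturation effect of the Rbfox1 tKO mice differed from that of the Rbfox2 tKO mice for 500 of 15905 genes (3.14%), 193 with the higher change in Rbfox1 and 307 with the higher change in Rbfox2 tKO mice. The count depended on the fit, with 218 genes without the mouse block and 102 by DESeq2, and with 277 genes when Rbfox1 tKO mouse 2 and 238 when Rbfox2 tKO mouse 1 was left out. In the control mice of the same lines, which lack no RBFOX gene, 632 genes differed (3.97%). The 264 genes called in both are 52.8% of the tKO and 41.8% of the control calls, and 263 of them had the same direction. The difference between these 2 line differences was itself called for 4 genes (0.0251%), Postn, Gp2, Muc5ac and Fabp4, named here after their values were seen.

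**Figure D5:**
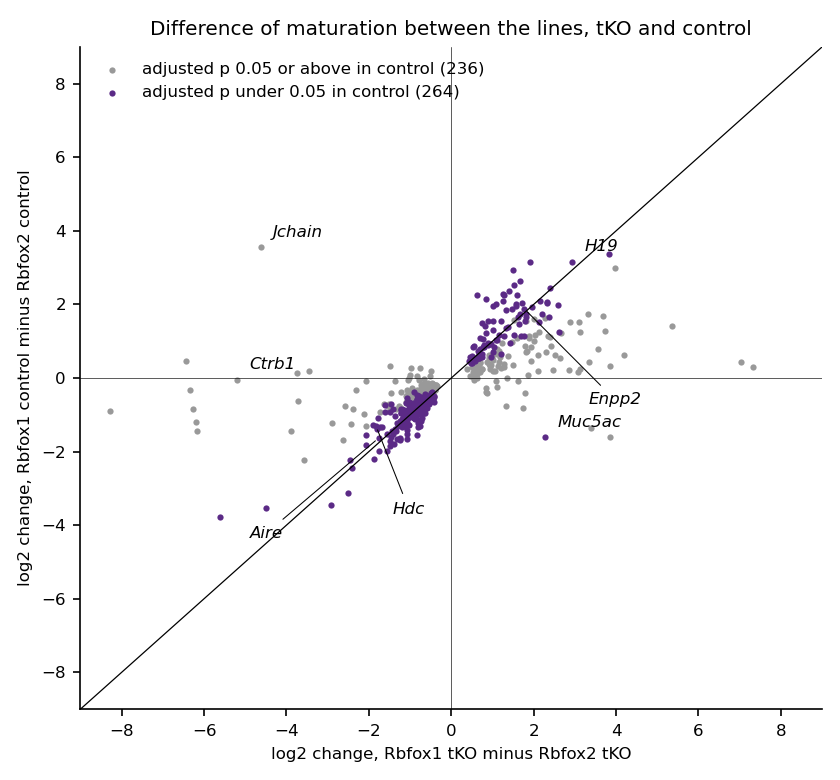
Difference between the lines in the log2 change with maturation, Rbfox1 minus Rbfox2, in tKO mice (horizontal) and control mice (vertical), 1 point for each of the 500 genes called in tKO mice, purple for the 264 also called in controls. Since the genes were chosen on the horizontal axis, only the vertical values are independent, and 473 of the 500 have the same sign there.

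Over the 500 genes, chosen for a line difference, that difference lay mainly in the immature libraries. The median absolute gap between the lines was 0.86 on the log2(CPM + 0.5) scale in immature and 0.24 in mature mTEC, and the gap was larger in immature mTEC for 433 genes. Immature libraries held fewer counts, and the part of depth in these gaps was not tested. Hdc, which makes histamine, was at 110 and 106 CPM in immature mTEC of the Rbfox1 tKO mice and 33.7 and 32.1 CPM in those of the Rbfox2 tKO mice, but at 1111 to 1268 CPM in the 4 mature libraries. Its change was therefore 3.42 in the Rbfox1 and 5.25 in the Rbfox2 tKO mice (difference -1.83 ± 0.16 SE, adjusted p 1.6e-11), with -1.31 between the control lines. Aire differed likewise, by -1.76 in tKO and -1.63 in control mice, and here mature mTEC differed between the lines too. Olfm4, a gut stem cell glycoprotein (-1.46), Insm1 (-1.08) and Cdx1 (-1.16) had the same sign, as did Cd80 (-1.40), Sirt1 (-0.78), Fezf2 (-0.65) and Csn2 (-0.90).

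The opposite sign was found for several genes of fibroblasts and vessels, among others. Enpp2, which makes lysophosphatidic acid, was at 82.7 and 70.6 CPM in immature mTEC of the Rbfox1 and 483 and 367 CPM in those of the Rbfox2 tKO mice, against 75.2 to 121 CPM in mature mTEC. Col1a1, of type I collagen, rose by 1.09 in the Rbfox1 and fell by 0.88 in the Rbfox2 tKO mice on the log2 scale, and the control lines differed by 1.94. Col3a1, Col6a3, Apod, H19 and Pecam1 also had the higher change in Rbfox1 tKO mice, Col3a1 and Pecam1 falling less there, and 6 of 10 fibroblast and 3 of 5 endothelial markers differed between the tKO lines. The summed levels given above are taken over these same lists, so they are no separate observation. In all, the fitted change had opposite signs in the 2 tKO lines for 131 of the 500 genes, among them Col1a1, H19 and Aqp1. The count takes the sign alone, and H19 changed by only -0.15 in the Rbfox2 tKO mice.

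Cell cycle genes were divided by line as well. Over both lines, 6 of 43 were higher, among them the inhibitor Cdkn2a (1.32) and the mitotic kinase Aurka (1.19), and 1 was lower, the G1 cyclin Ccnd1 (-1.44), shares below those of all genes. Between the tKO lines, 20 of 43 differed (46.5%, against 3.14% of all genes), each with the lower change in Rbfox1 tKO mice, and 16 of these 20 also differed between the control lines. The summed level was 3534 to 3644 CPM in immature mTEC of the Rbfox1 and 2588 to 2973 CPM in those of the Rbfox2 tKO mice, with 3281 to 3670 CPM in the 4 mature libraries. The median change of the list was -0.07 in the Rbfox1 and 0.83 in the Rbfox2 tKO mice.

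Within a line, tKO and control mice differed in the change of 6 genes in the Rbfox1 line (0.0377%), each lower in tKO mice, and of 32 in the Rbfox2 line (0.201%), 28 of them lower. Neither set held by DESeq2 or without the mouse block, where 0 genes were called in both lines, with 77 and 172 genes at an unadjusted p under 0.05 by DESeq2. In the Rbfox1 line some rest on 1 library: Jchain, of secreted antibody, was at 25.6 CPM in immature mTEC of Rbfox1 tKO mouse 3 and at 0 to 0.698 CPM in the other 3, and the chymotrypsinogen Ctrb1 at 49.9 CPM in that of Rbfox1 tKO mouse 2 and 0 to 1.4 CPM in the others. Postn, a matrix protein of fibroblasts, fell in both Rbfox1 tKO mice, from 164 and 167 to 58.8 and 39.7 CPM, against 74.7 and 98.6 to 56.6 and 60.3 CPM in their controls (difference -1.20 ± 0.20 SE).

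In the Rbfox2 line Reg3g had the smallest p. Reg3g, an antimicrobial lectin of the gut, was at 313 and 414 CPM in immature and 551 and 679 CPM in mature mTEC of Rbfox2 tKO mice, against 151 and 233 and 805 and 871 CPM in their controls, so that the change was 0.76 against 2.14 (difference -1.39 ± 0.18 SE, adjusted p 6.6e-06). The mucin Muc5ac was at 18.3 and 28.6 CPM in immature mTEC of the tKO and 3.27 and 4.86 CPM in that of the control mice, with 100 to 115 CPM in mature mTEC of both. Gsta4, a glutathione transferase, Clca1, a secreted protein of goblet cells, and Gp2, a glycoprotein of M cells and the exocrine pancreas, were likewise higher in immature mTEC of the tKO mice. For Reg3g the same direction was seen in the Rbfox1 line (difference -0.63), where it did not pass the test (adjusted p 0.36), and for Muc5ac the opposite one (1.31, adjusted p 0.56).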

How the data were processed

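RNA-seq of sorted mature and immature mTEC of 8 mice was analysed from a single table of counts per gene, as the authors deposited it. Per the file headers, the authors had left out duplicates and reads without a match and had sampled each library down to 14500000 reads in mature and 10000000 in immature mTEC. Alignment and counting on mm10 are listed in the submitters' processing notes with featureCounts 1.6.0, HISAT2 2.1.0 and Picard 2.10.9. The table holds 53464 Ensembl genes, 53360 of which were named by GENCODE M21, and 35943 assembled loci, which were tested but not counted as genes. Counts of tKO and of control libraries were tested apart with edgeR 4.0.16 (R 4.3.3), with TMM scaling, a minimum count of 10 in filterByExpr, and a block for the mouse. Both populations came from the same mouse, and deviations from the group means correlated by 0.158 to 0.251 between them over 13017 genes. Differences between effects were tested in 1 fit of the 16 libraries at an adjusted p under 0.05 alone. Each SE is the log2 fold change divided by the root of the F statistic. Replicates are separate mice, and libraries of a condition differed by more than counting noise (chi-square 1.87 to 3.00 per degree of freedom). Detected genes were counted in Python 3.11.15 with numpy 2.4.6. Scripts were tested on simulated data. Intervals of count ratios are exact, at 95%, and cover counting error only.

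The members and gene lists were chosen with earlier results of these data known. Named genes are those of the lists with the largest change in each direction among those called, with some members not called, the 15 genes with the largest fold and the 10 with the smallest p in each direction (examples are given), genes called in differences, and Rbfox1, Rbfox2, Foxn1 and its neighbours. Promoter sequences are from RefSeq on GRCm38.p6. Alternatives were RLE size factors, library totals, DESeq2 1.42.0, other filters, thinning, no block, other sets of libraries and each mouse left out. The tKO minus control difference with maturation terms by line, comparisons of the control lines and of the line differences, and leaving out mice in the differences within a line, were added after the data were seen. Splicing was not analysed here. Some members of the lists are not reported here by name.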

Additional observations from a re-analysis of the deposited data

Results flagged for a closer look

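Of 247 sets of 4 tKO mice, 12 held a mouse whose change with maturation lay far from those of the other 3 (Dixon's test at its 95% critical value), and chance alone gives about 1 in 20. On the log2(CPM + 0.5) scale, Rbfox1 tKO mouse 3 had 3.42 for Apob (others 6.38 to 6.93), 4.34 for Csn1s2a (6.00 to 6.26), 4.53 for Krt81 (5.46 to 5.62) and a median of 2.89 over germ cell genes (3.53 to 3.64). Rbfox1 tKO mouse 2 had -2.75 for Gbp3 (-2.44 to -2.38), 3.54 for Hnf4g (2.50 to 2.65), 3.56 for Igf1 (3.29 to 3.32) and a median of 1.14 over skin and hair genes (0.38 to 0.50). Rbfox2 tKO mouse 1 had -4.25 for Apoe (-3.79 to -3.70) and -3.18 for Mmp3 (-1.68 to -1.54). Rbfox2 tKO mouse 2 had -2.68 for Hey2 (-3.77 to -3.69) and 2.40 for Tnfsf4 (4.03 to 4.16).

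The change with maturation differed between the 2 tKO lines for 37 named genes. Each value is the change in Rbfox1 minus that in Rbfox2 tKO mice on the log2 scale, with the same difference between the control lines in parentheses. Both were positive for Enpp2 1.77 (1.89), Col1a1 1.97 (1.94), Col15a1 1.57 (2.01), Col6a3 1.90 (3.15), Apod 2.39 (2.45), H19 2.93 (3.16), Aqp1 2.43 (0.88), Col3a1 1.25 (2.09), Pecam1 2.37 (1.67), Lpl 1.0 (1.95), Dcn 0.74 (1.49), Cav1 1.65 (1.46), Ifi44 0.93 (0.25), Cxcl12 0.91 (0.39), Ly6a 0.52 (0.15), Postn 0.63 (2.26). Both were negative for Hdc -1.83 (-1.31), Aire -1.76 (-1.63), Olfm4 -1.46 (-1.60), Insm1 -1.08 (-1.42), H2-Eb2 -0.98 (-0.93), Cdx1 -1.16 (-1.04), Rbfox1 -1.03 (-0.38), Actn3 -0.64 (-0.56), Fezf2 -0.65 (-0.53), Ctrb1 -5.21 (-0.04), Ikzf1 -0.87 (-1.01), Cd80 -1.40 (-1.52), Sirt1 -0.78 (-0.58), Calcb -0.83 (-1.54), Csn2 -0.90 (-1.08), Tnfrsf11b -0.73 (-0.89), Msi1 -0.89 (-1.13). The signs were opposite for Fabp4 1.11 (-0.25), Muc5ac 2.28 (-1.61), Clca1 1.34 (-0.75), Jchain -4.63 (3.56).

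Within the Rbfox1 line, the tKO minus control difference of the log2 changes was -1.20 for Postn, -3.68 for Ctrb1, -8.23 ± 1.62 SE for Jchain, which had 0 counts in both control immature libraries and so has no measured size, -3.46 for Mmp3, -0.71 for Gm23935 and -1.01 for Lpl. Within the Rbfox2 line it was -1.39 for Reg3g, -0.99 for Gp2, -1.60 for Gsta4, -2.58 for Muc5ac, -1.91 for Clca1, -1.01 for Fabp4, -2.48 for Actc1, -2.25 for Muc5b, -1.02 for 5330417C22Rik, -1.05 for Wfdc2, -0.83 for Tagln and -3.66 for Sst. None of these was called by DESeq2, which called 0 genes in both lines.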

How the results depend on the processing

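The count of genes called with maturation in tKO mice stayed within 1.5 times under RLE size factors (4979), library totals (4962), DESeq2 (4865), no replicate block (4988), thinning (3884), no filter (7168) and with any mouse left out (4948 to 5122). With no filter, 5307 were higher and 1861 lower, so that 74.0% in place of 66.1% of the calls were higher. With at least 10 counts in every library, a filter that removes genes absent from immature mTEC, 2151 genes (991 higher) were called in tKO and 2128 in control mice, and with no fold threshold 9451 and 9638.

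The difference between tKO and control mice stayed at 0 genes except with no filter (17 genes) and with maturation terms by line (12 genes, but 0 by DESeq2 and 0 without the replicate block). Within a line it was 0 in both lines without the replicate block and by DESeq2, and with a mouse left out 2 to 16 in the Rbfox1 and 10 to 60 in the Rbfox2 line. Between the tKO lines it was 218 without the block, 102 by DESeq2 and 238 to 460 with a mouse left out. The cause was not tested. The block changed the count of no other comparison by over 1.5 times. The gain in genes detected was 6748.75 without thinning and 2015 at a minimum of 5 counts.

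Of 3200 pairs of a named gene and an alternative, 3090 kept their direction and side of the threshold, 46 lost and 52 gained the call, and 12 reversed, in 7 genes not called in tKO mice. In the Rbfox2 tKO mice alone the log2 fold change was -0.64 for Aqp1, -0.31 for Clca1, -0.87 for Col1a1, -0.065 for Gp2 and -0.13 for H19, and in the Rbfox1 tKO mice alone 0.27 for Col6a3 and -0.49 for Jchain. With a mouse left out the range was -0.16 to 0.86 for Aqp1, -0.15 to 0.92 for Clca1, -0.36 to 0.41 for Col1a1 and -0.091 to 4.21 for Jchain. Without a mouse, calls were lost for Pecam1 (-0.84), Enpp2 (-0.65), Rfxap (-0.83), Aurka (0.99), Col15a1 (-0.96) and Il15ra (-0.94) when it was Rbfox2 tKO mouse 1, for Pecam1 (-1.15), Enpp2 (-0.78) and Itga6 (-0.99) when it was Rbfox2 tKO mouse 2, and for Apod when it was Rbfox1 tKO mouse 2 (0.66) or 3 (0.63). By DESeq2 they were lost for Apod, Enpp2, Il15ra and Pecam1, with RLE size factors for Enpp2 and Il15ra, with library totals for these and Rgs5, with no filter for these and Rfxap, with thinning for Apod and Rfxap, and without the block for Apod. The others were lost in 1 line alone or with 10 counts in every library. The list counts moved in 130 of 1280 pairs. With 2 mice a line and genotype and fewer counts in immature than in mature mTEC, small changes in genes of low level were not detectable.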
